A study of Homo sapiens with 33 samples.

Results

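The libraries compared here carry HA-tagged MITF with the change named G244E (3 libraries) or an empty control (Empty, 3 libraries), 6 of the 33 libraries of the series, and they were chosen by their titles alone. By the usual notation the name stands for a glycine of the protein replaced by glutamate. All 6 came from the human melanoma line UACC-257, an established line, and all are labelled as MITF knockdown cells treated with doxycycline, so that both groups share the knockdown and the drug. CUT&Tag was run on 400000 cells per library with an anti-HA antibody, a method in which the antibody brings a transposase to the tagged protein and DNA nearby is cut and given adapters, and each library was deposited as 1 list of peaks. The 3 libraries of wild-type MITF (WT), with the same label for knockdown and drug, served as a map of where the unchanged protein was found. The labels do not say what drives the constructs, whether lines were clonal, what the empty control holds, or whether replicates were separate cultures, so p-values measure only the spread between these samples. The comparison asks which signal of the variant stands above that of the control.

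MITF is a transcription factor of the basic helix-loop-helix leucine zipper family and the main regulator of the melanocyte lineage. It binds DNA as a dimer, at a short palindrome called the E-box (CACGTG) and at a related form (CATGTG), and its known targets include genes of pigment synthesis, lysosomes, survival and the cell cycle. Peaks of the control, which the labels name only as Empty, give the background measured in the same way in these cells.

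Promoter sequences of 8 genes are given first, because the results below turn on peaks over them. Each is the 250 bases before the transcription start, 5′ to 3′ on the strand of the gene, from the RefSeq promoter table (GRCh38.p14), with any E-box of either form in capitals. Of the 19974 protein-coding genes, 15812 had a promoter in that table. RRAGC, INTS6 and UNC79 have an E-box and had stronger ranks in G244E than in Empty, and NEU1 has an E-box and was strong in both groups. TBL2 and SMPD1 have no E-box here and ranked higher in G244E, PGK1 was at the top of both groups, and SKA2 ranked higher in Empty. The E-box starts at −112 in RRAGC, −80 in INTS6, −87 in UNC79 and −126 in NEU1, counted from the start, with −1 as the last base before it.
RRAGC (chr1:38859773-38860022, minus strand): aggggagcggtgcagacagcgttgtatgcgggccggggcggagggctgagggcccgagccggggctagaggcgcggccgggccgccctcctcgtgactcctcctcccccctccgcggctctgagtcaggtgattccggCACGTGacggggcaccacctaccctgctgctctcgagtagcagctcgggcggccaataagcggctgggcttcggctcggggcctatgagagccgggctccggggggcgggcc
INTS6 (chr13:51453037-51453286, minus strand): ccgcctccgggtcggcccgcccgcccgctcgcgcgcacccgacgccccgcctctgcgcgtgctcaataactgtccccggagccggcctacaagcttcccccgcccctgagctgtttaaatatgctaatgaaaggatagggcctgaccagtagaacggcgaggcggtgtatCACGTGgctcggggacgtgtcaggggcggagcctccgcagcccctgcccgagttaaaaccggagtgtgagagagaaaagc
UNC79 (chr14:93332969-93333218, plus strand): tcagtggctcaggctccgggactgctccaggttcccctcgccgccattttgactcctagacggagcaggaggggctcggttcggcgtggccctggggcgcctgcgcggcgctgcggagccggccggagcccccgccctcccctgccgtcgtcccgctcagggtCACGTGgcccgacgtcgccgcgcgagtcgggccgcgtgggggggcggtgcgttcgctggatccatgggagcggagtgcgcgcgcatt
NEU1 (chr6:31862822-31863071, minus strand): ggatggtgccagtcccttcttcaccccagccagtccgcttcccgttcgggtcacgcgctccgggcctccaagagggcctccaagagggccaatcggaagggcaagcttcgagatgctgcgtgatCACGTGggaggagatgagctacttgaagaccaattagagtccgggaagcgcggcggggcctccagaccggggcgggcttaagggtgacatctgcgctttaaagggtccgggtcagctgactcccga
TBL2 (chr7:73578580-73578829, minus strand): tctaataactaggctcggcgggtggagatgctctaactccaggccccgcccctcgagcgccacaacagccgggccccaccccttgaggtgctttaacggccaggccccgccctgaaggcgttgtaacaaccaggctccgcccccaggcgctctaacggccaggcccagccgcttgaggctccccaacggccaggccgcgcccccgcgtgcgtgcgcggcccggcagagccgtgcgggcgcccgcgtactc
SMPD1 (chr11:6390224-6390473, plus strand): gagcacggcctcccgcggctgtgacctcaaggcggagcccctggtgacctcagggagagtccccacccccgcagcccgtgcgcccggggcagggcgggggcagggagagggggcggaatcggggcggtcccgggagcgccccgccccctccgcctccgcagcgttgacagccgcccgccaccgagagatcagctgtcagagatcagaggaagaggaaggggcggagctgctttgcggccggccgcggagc
PGK1 (chrX:78103998-78104247, plus strand): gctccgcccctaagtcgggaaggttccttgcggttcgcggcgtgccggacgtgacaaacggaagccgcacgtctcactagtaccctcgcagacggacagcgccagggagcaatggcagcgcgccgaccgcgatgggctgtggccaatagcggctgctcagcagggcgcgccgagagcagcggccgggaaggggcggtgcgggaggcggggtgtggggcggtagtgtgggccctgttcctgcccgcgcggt
SKA2 (chr17:59155187-59155436, minus strand): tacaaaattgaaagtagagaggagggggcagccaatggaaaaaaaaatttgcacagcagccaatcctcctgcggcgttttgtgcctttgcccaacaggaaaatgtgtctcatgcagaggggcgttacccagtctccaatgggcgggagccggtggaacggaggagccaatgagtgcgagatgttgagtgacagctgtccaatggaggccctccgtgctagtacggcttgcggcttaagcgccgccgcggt
A match to these letters is a description of the window and does not show a bound site.

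Peaks of a given rank were far stronger in G244E than in Empty, but the G244E libraries were also deeper. The deposited −log10 q of the 1000th strongest peak was 44.5, 35.3 and 46.6 in G244E replicates 1 to 3 and 5.66, 4.51 and 3.94 in Empty, so the groups did not overlap. Peaks with a −log10 q of at least 5 numbered 26326, 20962 and 28679 in G244E and 1310, 769 and 563 in Empty, a log2 difference of 4.92 (exact permutation test over the 6 libraries, two-sided, p = 0.1, the smallest that 3 against 3 allow). Relative depth, read as the commonest background pileup that fold and p imply, was 0.129, 0.108 and 0.151 in G244E and at most 0.03 in each Empty library. At own depth, the log2 difference in peaks with a −log10 p of at least 8 was 3.76 (exact permutation p = 0.1). With the G244E pileups thinned by binomial sampling to the limit of 0.03, 4864 ± 299 peaks (SD, n = 3) reached that −log10 p, against 1858 ± 535 in Empty. The log2 difference was then 1.43 (exact permutation p = 0.1). Since 0.03 is an upper limit for Empty, the thinned libraries may still be the deeper ones, and the share of the remaining difference due to depth was not tested. The lists of G244E replicates 1 and 2 stop at 300000 peaks, inside a class of tied weak peaks, so only comparisons of complete lists are touched by that limit.

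**Figure D1:**
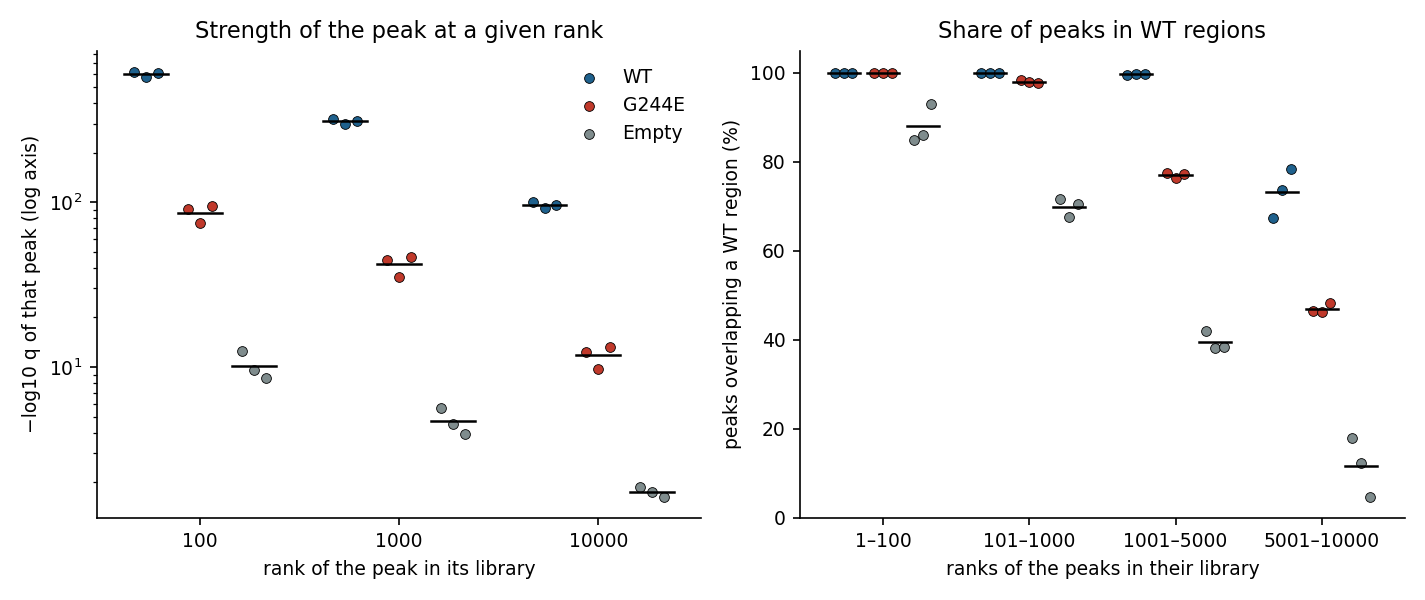
Left, the deposited −log10 q (log axis) of the peak at rank 100, 1000 and 10000 of each library of WT, G244E and Empty; right, the percent of peaks in each span of ranks that overlap a WT region. Each point is 1 library and each bar a group mean; at rank 1000 the G244E libraries sit between 35.3 and 46.6 and the Empty libraries between 3.94 and 5.66.

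The strongest G244E peaks lay almost entirely where wild-type MITF was found. WT regions are the 7054 regions held by all 3 WT libraries among their 10000 strongest peaks, and neither G244E nor Empty was used to define them. Of the 1000 strongest peaks by −log10 q, 98.5%, 98.2% and 98.0% overlapped a WT region in the G244E libraries, and 73.0%, 69.4% and 72.7% in the Empty libraries. The difference of 26.5 percentage points was larger than the spread between replicates (exact permutation p = 0.1, n = 3 each), and it was 21.0 at the depth limit of Empty. The Empty share was itself high, with 88% ± 4.36 of the 100 strongest Empty peaks in WT regions against 100% ± 0 of those of G244E (SD, n = 3 each). Overlap then fell along the ranks in both groups, to 77.1% ± 0.506 in G244E and 39.6% ± 2.18 in Empty at ranks 1001 to 5000, and to 47.0% ± 1.16 and 11.6% ± 6.62 at ranks 5001 to 10000. Ties set part of the last Empty value, since the class of equal −log10 q that holds the 10000th Empty peak had 13656 to 16400 members.

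G244E libraries resembled each other more than they resembled Empty. Of the 1000 strongest peaks of a G244E library, 73.9% to 75.6% overlapped one of another G244E library, 51.2% to 52.8% one of a WT library and 29.6% to 37.5% one of an Empty library. Pairs of Empty libraries shared only 28.6% to 32.8%, and 28.1% to 35.3% of the 1000 strongest Empty peaks overlapped one of a G244E library, so these ranges overlapped. Thinned to the depth limit of Empty, pairs of G244E libraries shared 48.6% to 53.8%, still above the range of Empty pairs. Median fold over background in the 1000 strongest peaks was 14.9 ± 0.406 in G244E, 7.05 ± 0.521 in Empty and 17.9 ± 0.947 in WT (SD, n = 3 each). Median peak width was 785 ± 20.9 bp in G244E and 382 ± 27.7 bp in Empty.

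Counted the other way, from the map of wild-type binding, the 10000 strongest G244E peaks found 68.1%, 66.5% and 68.6% of the 7054 WT regions. Empty found 36.9% ± 4.32 and thinned G244E 57.6% ± 0.518 (SD, n = 3 each; exact permutation p = 0.1 for either against Empty). Place made a difference in both groups. Of the 2736 WT regions within 1000 bp of a gene end, G244E found 85.3% ± 0.709 and Empty 50.7% ± 5.40, and of the 3198 more than 10000 bp from one, G244E found 54.6% ± 2.27 and Empty 26.3% ± 3.20. The gap between near and far regions was 30.7 ± 2.92 percentage points in G244E and 24.3 ± 2.38 in Empty (n = 3 each, exact permutation p = 0.1), but 25.9 ± 2.57 with G244E thinned (exact permutation p = 0.5), so the call was lost at the depth limit of Empty.

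E-box promoters were not found more often than other promoters. Among WT regions over a promoter, G244E found 77.8% ± 0.909 of the 606 whose promoter holds an E-box and 89.7% ± 0.767 of the 1681 whose promoter holds none (SD, n = 3). Empty showed the same order, at 43.3% ± 5.05 and 55.2% ± 5.75. The gap between the kinds was -11.8 ± 1.05 percentage points in G244E and -11.9 ± 0.741 in Empty (n = 3 each, exact permutation p = 0.9). With G244E thinned to the depth limit of Empty the gap was -10.1 ± 0.962 (exact permutation p = 0.1 against Empty), smaller than in every Empty library, so whether the gaps differ depends on depth.

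**Figure D2:**
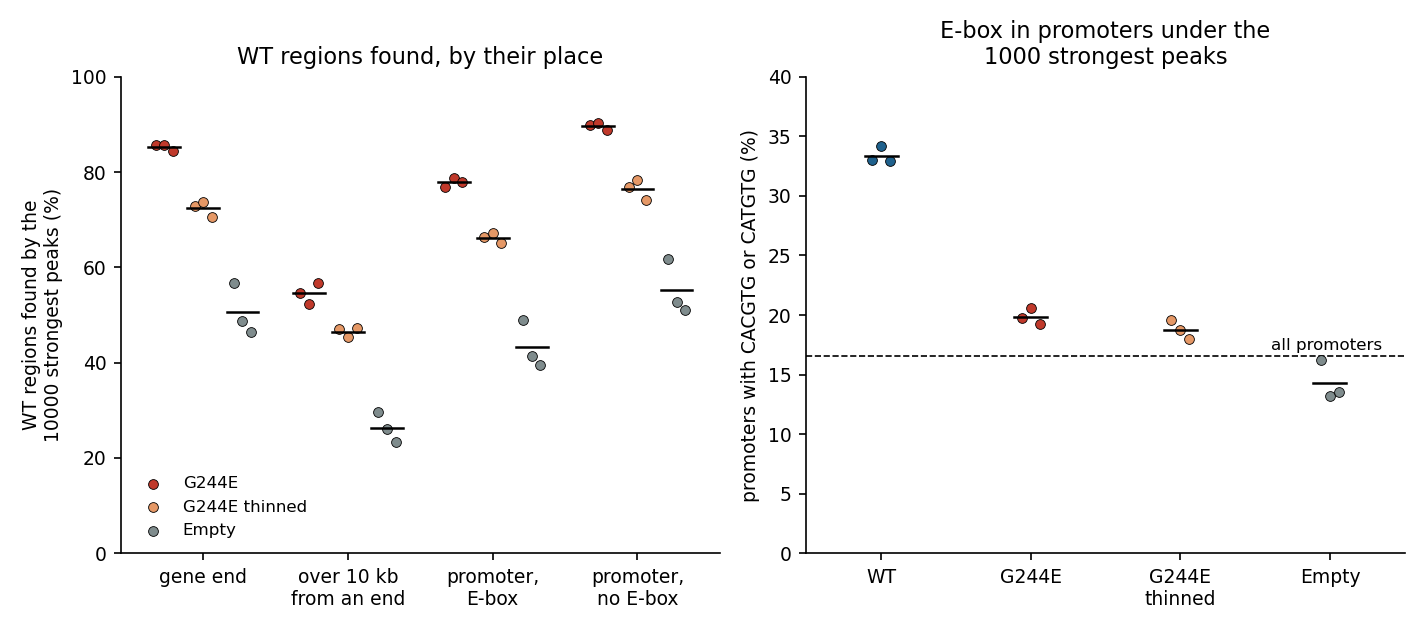
Left, the percent of WT regions found by the 10000 strongest peaks of each library, by the place of the region, for G244E at its own depth, thinned G244E and Empty; right, the percent of promoters under the 1000 strongest peaks that hold CACGTG or CATGTG, with all promoters as a dashed line at 16.6%. Each point is 1 library (a mean of 5 draws where thinned) and each bar a group mean; G244E lies between 19.2% and 20.6% on the right, above Empty and below WT.

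Among promoters under the strongest peaks, E-boxes were more frequent in G244E than in Empty, and less than in WT. In the 300-base windows of the promoter table (250 bases before to 50 after the start), read on both strands, CACGTG or CATGTG was present in 19.8% of the 496, 20.6% of the 510 and 19.2% of the 468 promoters overlapped by the 1000 strongest peaks of the G244E libraries. In the Empty libraries it was present in 16.2% of 444, 13.2% of 423 and 13.5% of 459. The groups did not overlap (19.9% ± 0.684 and 14.3% ± 1.65, n = 3 each, exact permutation p = 0.1), and over all promoters the share was 16.6%. WT reached 33.4% ± 0.733. G244E stayed at 18.0% to 19.6% when thinned, still above the Empty libraries. The difference from Empty, 5.54 percentage points here, was 3.44 when ranked by fold and 2.30 and 2.29 over the 5000 and 10000 strongest peaks. CACGTG alone was in 13.9%, 16.5% and 15.2% of G244E promoters, 12.4%, 11.1% and 10.2% of Empty promoters and 8.87% of all. For comparison, CCGGAAG, the core of sites bound by ETS factors, was in 16.7% to 18.5% of G244E promoters, 17.7% to 20.9% of Empty promoters and 14.2% of all. TGANTCA, the AP-1 element, was in 3.21% to 3.73% of G244E promoters, 1.42% to 1.80% of Empty promoters and 5.76% of all. None of these motifs contains another, but a promoter can hold several.

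The strongest peaks lay at gene ends in most cases in both groups. Summits within 1000 bp of an end of a protein-coding gene made up 58.8% ± 2.31 of the 1000 strongest peaks in G244E, 55.5% ± 0.961 in Empty and 42.5% ± 2.01 in WT (SD, n = 3 each; G244E against Empty, exact permutation p = 0.1). The difference from Empty was 3.27 percentage points, and it turned to -1.47 when peaks were ranked by fold, so its direction depends on the ranking. It was 2.21 with G244E thinned (exact permutation p = 0.3), and 10.2 and 20.5 over the 5000 and 10000 strongest peaks (exact permutation p = 0.1 each), the last with ties in Empty.

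Single regions were compared on a rank score: log2 of 10000 over the rank by −log10 q, and 0 past rank 10000. Tied peaks took their average rank, and 9979, 10021 and 10000 peaks scored above 0 in G244E replicates 1 to 3. In Empty the tied class at rank 10000 fell past that limit, so only 8305, 6794 and 5068 peaks scored above 0. Of the 9657 regions tested with limma, 120 scored higher in G244E (1.24%) and 20 lower (0.207%) at a Benjamini-Hochberg adjusted p below 0.05. At an unadjusted p below 0.05 there were 1664. Every G244E score lay above every Empty score in 1991 regions (20.6%), and the reverse held in 307 (3.18%). Regions needed a score above 0 in at least 2 libraries to be tested. Of the 10000 strongest peaks, pairs of G244E libraries shared 77.0% to 79.1% and pairs of Empty libraries 20.1% to 26.6%. Regions of G244E alone thus entered more readily than regions of Empty alone, which favours higher over lower in these counts. The gene fit below used the same filter. Of the 120 higher regions, 117 were WT regions, 73 were among the 1000 strongest of all WT libraries and 53 lay at a gene end (44.2%). Of all 9657 tested, 5240 were WT regions (54.3%), 682 were among the 1000 strongest of all WT libraries and 48.1% lay at a gene end, so the 120 were not at gene ends more often than the rest. The share in WT regions was 97.5%, near the 99.1% of the 537 regions held by all G244E libraries among their 1000 strongest, so it does not set the 120 apart from other strong G244E peaks. Of the 54 promoters under the 120 regions, 13 held an E-box (24.1%), against 709 of 4206 (16.9%) under all regions tested. Under the 537 regions it was 61 of 312 (19.6%), and 59.8% of the 537 lay at a gene end, more than of the 120. The calls depend on each G244E library: without any 1 of the 3, limma called none in either direction (1818 to 1919 at an unadjusted p below 0.05), while 92 to 128 higher and 29 to 43 lower were called without 1 Empty library. At the depth limit of Empty 4 were higher and 5 lower of 13687 tested, although all 120 and all 20 kept their sign there. Their median differences were 4.61 and -6.07 in the main fit and 4.03 and -6.10 with G244E thinned. The adjustment there ran over more regions, and its part in the loss of calls was not tested.

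TBL2, which encodes a protein with WD40 repeats, had the largest positive difference. Its region at the gene end (chr7:73578364-73579327) ranked 13, 17 and 5 in G244E and 7554.5, 5233 and 3279 in Empty, with a −log10 q of 146, 117 and 224 against 2.01, 2.12 and 2.27. The score difference was 8.94 ± 0.92 (SE; limma adjusted p = 0.0113, and 0.0395 at the depth limit of Empty). WT ranked it 84, 55 and 44, so every G244E library placed it higher than every WT library.

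The next was a region nearest to CEP295NL and inside TIMP2, an inhibitor of matrix metalloproteinases (chr17:78883049-78884459). It ranked 4, 3 and 4 in G244E, 4 in each WT library, and 1014, 1755 and 2071.5 in Empty. The −log10 q of its peak was 216, 198 and 266 in G244E and 5.66, 3.74 and 2.98 in Empty, and the score difference was 8.73 ± 0.84 (SE; limma adjusted p = 0.0113, and 0.00356 at the depth limit of Empty). The region stood at the very top of the G244E and WT lists, and past the 1000 strongest peaks in every Empty library.

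At the NAMPT promoter, which drives the rate-limiting enzyme of NAD salvage, G244E ranked 21, 7 and 34 and Empty 6306, 1941.5 and 2669 (chr7:106284522-106285789; difference 7.55, limma adjusted p = 0.0183). INTS6 encodes a subunit of the Integrator complex, which processes small nuclear RNAs, and its promoter with the E-box shown above ranked 45, 39 and 13 in G244E and 2424, 3329 and 22475 in Empty (7.25, limma adjusted p = 0.0184). The region near FTH1, the heavy chain of ferritin, ranked 53, 55 and 93 in G244E and 12, 15 and 13 in WT (chr11:61971201-61972183; 6.84, limma adjusted p = 0.0133). In Empty it ranked 16505.5 in replicate 1 and 4037 in replicate 3 and was not listed in replicate 2. In MID1IP1, which encodes a regulator of lipogenesis, G244E ranked 138, 83 and 57, and Empty listed the region in replicate 1 alone, at rank 66548.5 (chrX:38803558-38804501; 6.85, limma adjusted p = 0.0113). These genes and those of the next sentence were taken as the 12 largest positive differences, a choice made after the values were seen. CBFA2T2, BAHCC1, UNK, ZNFX1, RASGRF1 and MBD6 had differences of 7.22 to 7.85 with ranks of 51 or better in all G244E libraries. Of the regions named in this paragraph, MID1IP1 and MBD6 still passed at the depth limit of Empty (limma adjusted p = 0.0395 each). The others did not, with limma adjusted p-values of 0.0548 to 0.0966 there.

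**Figure D3:**
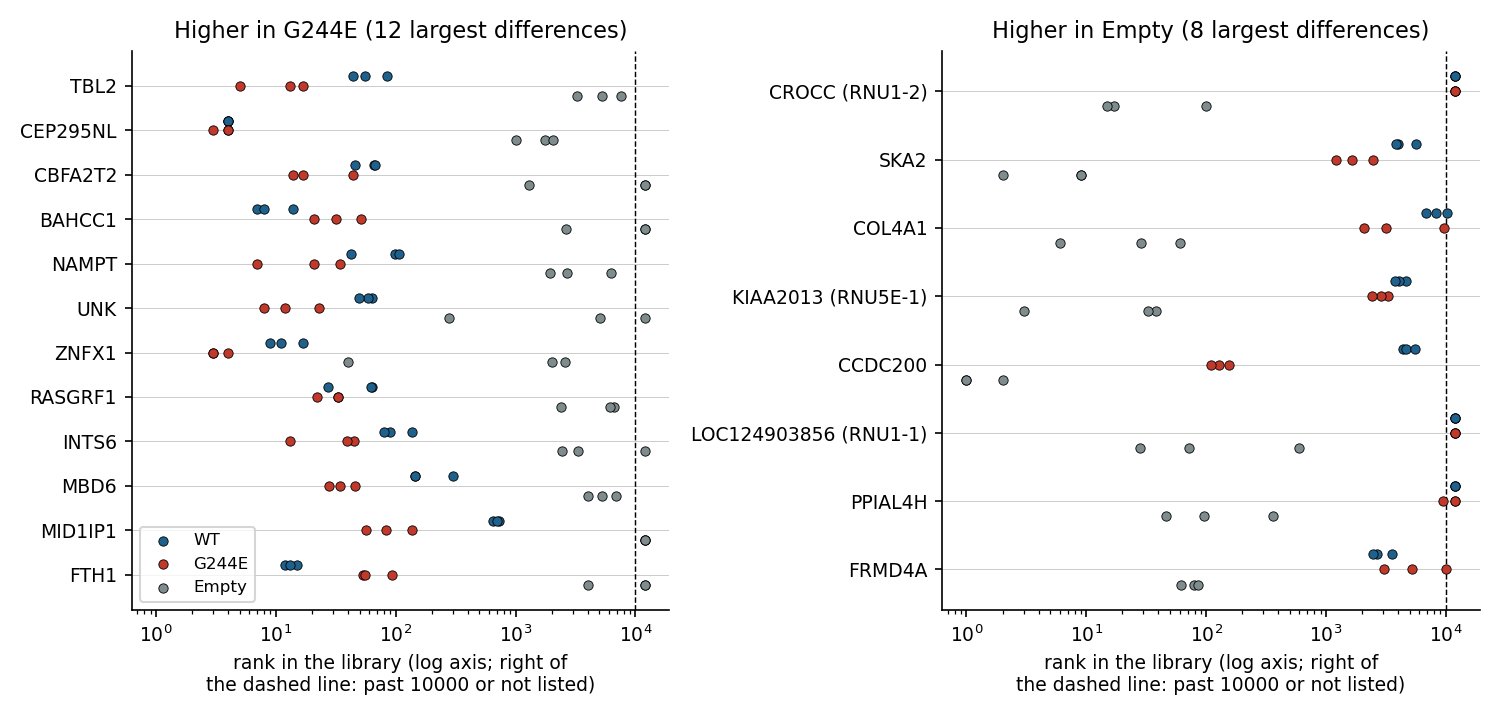
Rank (log axis) of each region in the 3 libraries of WT, G244E and Empty, for the 12 regions of largest positive and the 8 of largest negative score difference, named by the nearest gene, with a small RNA gene in parentheses where it has a symbol. Each point is 1 library, and points right of the dashed line are past rank 10000 or not listed; TBL2 ranks 5 to 17 in G244E and 3279 to 7554.5 in Empty, and CROCC (RNU1-2) ranks 15 to 100 in Empty and past 10000 in G244E.

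Not every strong G244E region was specific. PGK1, which encodes a glycolytic kinase, held the strongest peak of all G244E and WT libraries (chrX:78103742-78104398), and it ranked 2, 1 and 3 in Empty. In −log10 q it stood at 408, 330 and 465 in G244E and 54.9, 45.4 and 34.5 in Empty, and the score difference of 0.86 did not pass the test (limma adjusted p = 0.453). By the rule for naming, the 8 regions of highest mean G244E score were those at PGK1, ZNFX1, CEP295NL, PHF1, TBL2, SYNCRIP, DYRK1A and UNK. All but PGK1 scored higher in G244E, with differences of 5.18 to 8.94 and limma adjusted p-values of 0.0113 to 0.049. At the depth limit of Empty only CEP295NL and TBL2 of these still passed. There ZNFX1, PHF1, SYNCRIP, DYRK1A and UNK had limma adjusted p-values of 0.0842 to 0.207. DYRK1A, a protein kinase gene, ranked 9, 21 and 11 in G244E and 492.5, 1736.5 and 447 in Empty.

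Regions with no Empty peak at all were few among the strongest. Of the G244E peaks at ranks 101 to 1000, 99.8% ± 0.111 overlapped a peak of some Empty list, however weak (SD, n = 3), and 90.4% ± 0.390 an Empty peak with a −log10 q of at least 2. Only 1 region was among the 1000 strongest of all 3 G244E libraries and in no Empty list. It lay 107027 bp from the nearest gene end, that of SHH, the Sonic hedgehog ligand (chr7:155919036-155919946), and ranked 265, 688 and 711 in G244E. With a −log10 q of 69.3, 40.7 and 52.4, the difference was 4.30 ± 0.75 (SE; limma adjusted p = 0.03003, and 0.119 at the depth limit of Empty). The region was picked by these same values, strong in G244E and absent from Empty, so the p-value adds no separate support. In WT it ranked 9739, 13258.5 and 12021, so it was not a WT region and had a nearer-top rank in every G244E library than in any WT library. Its −log10 q in WT was 102, 73.8 and 83.3, above each G244E value, so the order of the groups differs between rank and −log10 q.

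Among the 10000 strongest of all G244E libraries, 5212 regions were shared and 99 of these overlapped no Empty peak. Of the 99, 57 were WT regions (57.6%), below the 75.4% of all 5212, and 21 lay at a gene end. SMPD1 encodes acid sphingomyelinase, a lysosomal lipid hydrolase, and its promoter region (chr11:6389979-6390650) ranked 934, 1234.5 and 2184 in G244E and 2513, 2586 and 3438 in WT. Its −log10 q was 45.9, 32.6 and 33.2 in G244E, and with no Empty peak the score difference of 2.88 had a limma adjusted p of 0.068. UNC79, a subunit of a sodium leak channel complex, ranked 2520.5, 2139 and 1910.5 in G244E (chr14:93332921-93333517). XYLB, which encodes xylulokinase, ranked 2495, 2243.5 and 2380.5, and 1814, 1574 and 1452 in WT (chr3:38346356-38347334). The choice of these regions was made with their values known, and none of the 3 passed the test (limma adjusted p = 0.068 to 0.132). At the depth of the Empty libraries a region without a peak may have been undetectable and need not be free of signal.

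The 20 regions lower in G244E were of another kind. Of these, 12 lay within 1000 bp of a gene for a small nuclear RNA or the U3 RNA, against 41 of the 9657 tested (0.425%), and 4 lay at a gene end (20%). WT regions made up 11 of the 20 (55%), near the 54.3% of all tested, and none was among the 1000 strongest of all WT libraries, where 682 of the 9657 were. The 55% was below the 88% ± 4.36 of the 100 strongest Empty peaks that overlapped a WT region (SD, n = 3). Small nuclear RNAs are short, highly transcribed RNAs of the splicing machinery, and U3 acts in ribosomal RNA processing. This gene class was chosen after the values of these libraries were seen, so the p-value of its counts adds no separate support. Among the 1000 strongest peaks, 31, 30 and 23 lay at such genes in the Empty libraries, 1 in each G244E library and 0 in each WT library (exact permutation p = 0.1 for G244E against Empty, n = 3 each). Thinning left the G244E number at 1.6. Of the 100 strongest Empty peaks, 12, 7 and 8 were at such genes. These RNA genes have near-identical copies, and how reads matching several copies were placed was not given in the sources used, so the copy that a peak belongs to is uncertain.

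**Figure D4:**
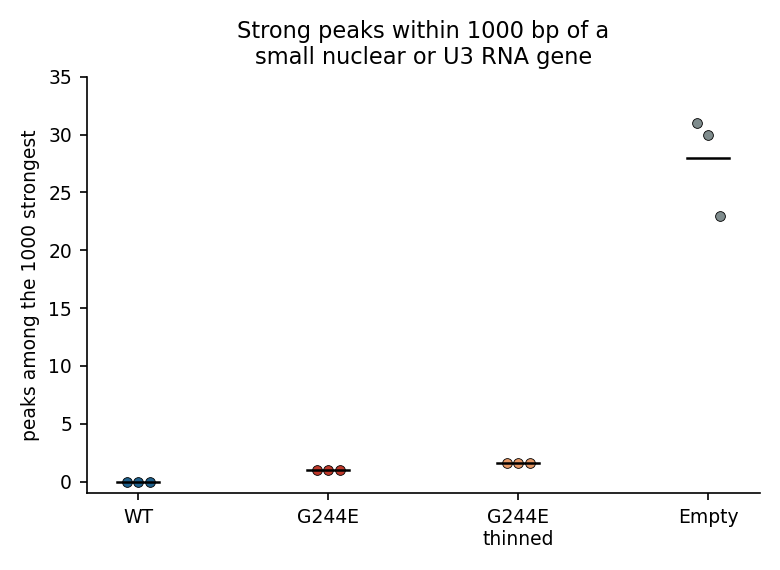
Number of peaks among the 1000 strongest of each library that lie within 1000 bp of a small nuclear or U3 RNA gene, for WT, G244E, thinned G244E and Empty. Each point is 1 library (a mean of 5 draws where thinned) and each bar a group mean; Empty has 23 to 31 such peaks and G244E 1 in each library.

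The largest negative difference was at RNU1-2, a U1 RNA gene, nearest to CROCC (chr1:16895983-16897175). It ranked 17, 100 and 15 in Empty and 13661.5, 15868.5 and 24504 in G244E, with a difference of -8.41 ± 0.98 (SE; limma adjusted p = 0.0113). Its −log10 q was 20.7, 9.54 and 14.3 in Empty and 9.44, 6.59 and 5.90 in G244E, so in the deeper G244E libraries the region was present but weak. RNU5E-1, a U5 RNA gene near KIAA2013, ranked 3, 38 and 33 in Empty and 3277, 2899 and 2413 in G244E (chr1:11908072-11909778; -7.51, limma adjusted p = 0.0227). The region of RNU1-1 ranked 72, 28 and 591.5 in Empty and past 10000 in every G244E library (chr1:16513324-16514365; -6.56, limma adjusted p = 0.0283). A region nearest to CCDC200, at a small nuclear RNA gene that has no symbol beyond LOC124904138, was at rank 1, 2 and 1 in Empty and at 127, 155 and 109 in G244E, which leaves it a strong peak in both (chr17:43251461-43252030; -6.68, limma adjusted p = 0.0113). The region nearest to PPIAL4H, at LOC124904613, had a difference of -6.39 (limma adjusted p = 0.0224).

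Others of the 20 were not at such a gene. The promoter shared by SKA2, which encodes a subunit of a spindle complex at kinetochores, and PRR11 ranked 9, 9 and 2 in Empty and 1646, 2467 and 1217 in G244E (chr17:59154601-59155836; -8.29, limma adjusted p = 0.0113). In G244E the −log10 q was still 35.6, 23.6 and 42.8. COL4A1, a collagen gene, and FRMD4A were also nearest to regions lower in G244E (-7.52 and -6.19, limma adjusted p = 0.0227 and 0.0192).

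In the WT libraries the median rank of the 120 higher regions was 540.5 to 547, against 273 to 331.75 in G244E, and in 7 other variants 456.5 (lowest, in K243A) to 839.5 (highest, in E260A). The libraries of rep217A stood apart, at 2523.5 to 3119.25. For rep217A and rep263A only 2 libraries each were used, since lists identical to another were counted once. For the 20 lower regions it was 53.75 to 98 in Empty, 4980.5 to 7018.5 in G244E and 6313 to 8472 in WT, and 2142.5 to 2740 in rep217A, a range that overlaps its own for the higher regions. These medians describe sets chosen on G244E and Empty and carry no test.

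Nearest genes also differed between the groups. The 1000 strongest peaks had 844 to 856 nearest protein-coding genes per G244E library and 900 to 915 per Empty library, 2496 over the 6 libraries. Of the 2496, 527 were shared by all G244E libraries and 187 by all Empty libraries, and 100 by all 6. In all G244E and no Empty library there were 166 (6.65%), and in all Empty and no G244E library 44 (1.76%). These counts also depend on how many genes the libraries of a group share, which was more in G244E. Nearest genes were not counted with G244E thinned, so the effect of depth on them was not tested. Of the 527 genes, 300 were also nearest genes in all WT libraries, which is 56.9% of the 527 and 44.2% of the 678 genes of WT.

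The gene fit, on the best rank score of peaks within 5000 bp of a gene end, tested 6865 protein-coding genes and called 82 higher (1.19%) and 8 lower (0.117%) in G244E. Without any 1 G244E library limma called none (916 to 957 at an unadjusted p below 0.05), and 7 and 2 of 9863 tested passed at the depth limit of Empty. Among the 82 were NAGLU, a lysosomal enzyme of heparan sulfate breakdown, and SREBF1, a regulator of lipid synthesis, both outside the lists used here and named after their values were seen. NAGLU ranked 319, 148 and 164 in G244E and 1607, 40014 and 27354.5 in Empty (difference 4.78, limma adjusted p = 0.0413). SREBF1 ranked 350, 104 and 217 in G244E and 6887, 3401.5 and 2702.5 in Empty (4.32, limma adjusted p = 0.0429). The 8 lower genes were CROCC, TAF12, SKA2, PRR11, SAMD4B, NECTIN2, TOMM40 and RSPH6A. A window of 5000 bp gives 1 peak to neighbouring genes, as for MBD6, DDIT3 and MARS1, so these are fewer loci than genes.

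Lysosome and autophagy genes were reached by more of the 10000 strongest peaks in G244E than in Empty. Of 26 such genes, 16 to 18 had a summit within 5000 bp in a G244E library, 7 to 11 in an Empty library and 22 to 23 in a WT library. Over all 19974 protein-coding genes the means were 28.6% in G244E, 23.5% in Empty and 24.2% in WT, so the lysosome share of 65.4% in G244E against 37.2% in Empty moved further than that of all genes. Thinned G244E reached 54.1%. Among the 1000 strongest peaks, 4 of the 26 genes were reached in each G244E library and 2 to 5 in Empty, so the groups overlapped there. In Empty, part of the 10000 strongest peaks were drawn in a fixed arbitrary order from a class of equal −log10 q. This holds for the lists below as well. In the 10000 strongest of all 3 libraries were 13 of the 26 genes for G244E, 4 for Empty and 22 for WT, against 21.1%, 7.96% and 21.4% of all genes, and 2 of the 26, both of them proton pump subunits, were in all G244E and no Empty library, against 2.45% of all genes. By count the fit called 1 of the 18 tested members higher and 0 lower, with a median difference of 0.20 against 0.05 over all genes tested.

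That member was RRAGC, a Rag GTPase that carries nutrient signals to mTORC1 at the lysosome. Its promoter, with the E-box at −112, ranked 300 and 345 in G244E replicates 1 and 3, and nearer the top in replicate 2. It ranked 35, 26 and 50 in WT, and 38179, 34074.5 and 3279 in Empty. Its −log10 q was 66.7, 57.4 and 66.9 in G244E and 1.01, 0.95 and 2.27 in Empty, and the difference was 4.52 ± 0.84 (SE; limma adjusted p = 0.0261, and 0.135 at the depth limit of Empty). The same region scored for the neighbouring gene MYCBP. ATP6V1B2, a subunit of the proton pump that acidifies lysosomes, was in the 10000 strongest of all G244E and no Empty library, at 720.5, 2808.5 and 1226, but did not pass (2.88, limma adjusted p = 0.110). WIPI1, an autophagy factor, ranked 66, 400 and 615 in G244E and 800.5, 1736.5 and 754.5 in Empty (2.004, limma adjusted p = 0.347). NEU1, a lysosomal sialidase with an E-box in its promoter, ranked 317, 222 and 213 in G244E and 692, 67.5 and 185 in Empty, so the groups overlapped (-0.26, limma adjusted p = 0.90003). ATP6V1C1, another pump subunit, had a difference of 1.13 (limma adjusted p = 0.341).

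Pigmentation genes set G244E apart from WT more than from Empty. Of 16 genes, 4, 8 and 6 were reached by the 10000 strongest peaks of the G244E libraries, 3 to 6 in Empty and 11 in each WT library. None of the 7 tested members passed the fit in either direction, with a median difference of 0.25. MYO5A, the myosin that carries melanosomes, RAB38, a GTPase of melanosome traffic, and MC1R, the melanocortin receptor, were in the 10000 strongest of all G244E libraries. MYO5A ranked 5035, 1875 and 4421.5 in G244E and 7554.5, 5233 and 4037 in Empty (0.64, limma adjusted p = 0.652). RAB38 ranked 4391.5, 8168 and 6610.5 in G244E and 6608 and 34074.5 in Empty replicates 1 and 2, with no peak in replicate 3 (0.49, limma adjusted p = 0.521). MC1R had a difference of -0.07 (limma adjusted p = 0.964).

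PMEL, the fibril protein of melanosomes, SLC45A2, a transporter of melanosomes, and GPNMB, a melanosomal glycoprotein, were reached in 2 of 3 G244E libraries, with differences of 0.25, 0.42 and -0.23. OCA2, MLPH and RAB27A were reached in 1. TYR, TYRP1, DCT, MLANA, SLC24A5, GPR143 and TRPM1 were reached in none. For TYR, the gene of tyrosinase, which starts melanin synthesis, the best peak had a −log10 q of 7.07, 4.54 and 10.3 in G244E, 1.37, 1.16 and 1.21 in Empty and 169, 159 and 125 in WT, which put it at ranks of 13758 to 23008.5 in G244E. TRPM1, a cation channel gene of melanocytes, had a −log10 q of 6.16, 3.58 and 6.55 in G244E and no peak in any Empty library, and ranked 1815 to 2192 in WT. TYR and TRPM1 thus had weak peaks in every G244E library, of higher −log10 q than in Empty but at greater depth, and outside the strongest 10000.

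Of 17 survival, cell cycle and metabolism genes, 10 were reached in each G244E library and 6 to 11 in Empty. None of the 10 tested members passed. CDK4, a kinase of the cell cycle, ranked 526, 130 and 82 in G244E and 2802, 4233 and 2125.5 in Empty, and HIF1A, the hypoxia factor, ranked 1157, 1209 and 1095 in G244E and 16505.5, 14190 and 11896.5 in Empty. Their differences of 4.04 and 3.12 had a limma adjusted p of 0.0642 each, although every G244E library ranked above every Empty library. CDKN1A, a cell cycle inhibitor, and TBX2, a repressor of it, had differences of 2.38 and -1.89 (limma adjusted p = 0.278 and 0.264).

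**Figure D5:**
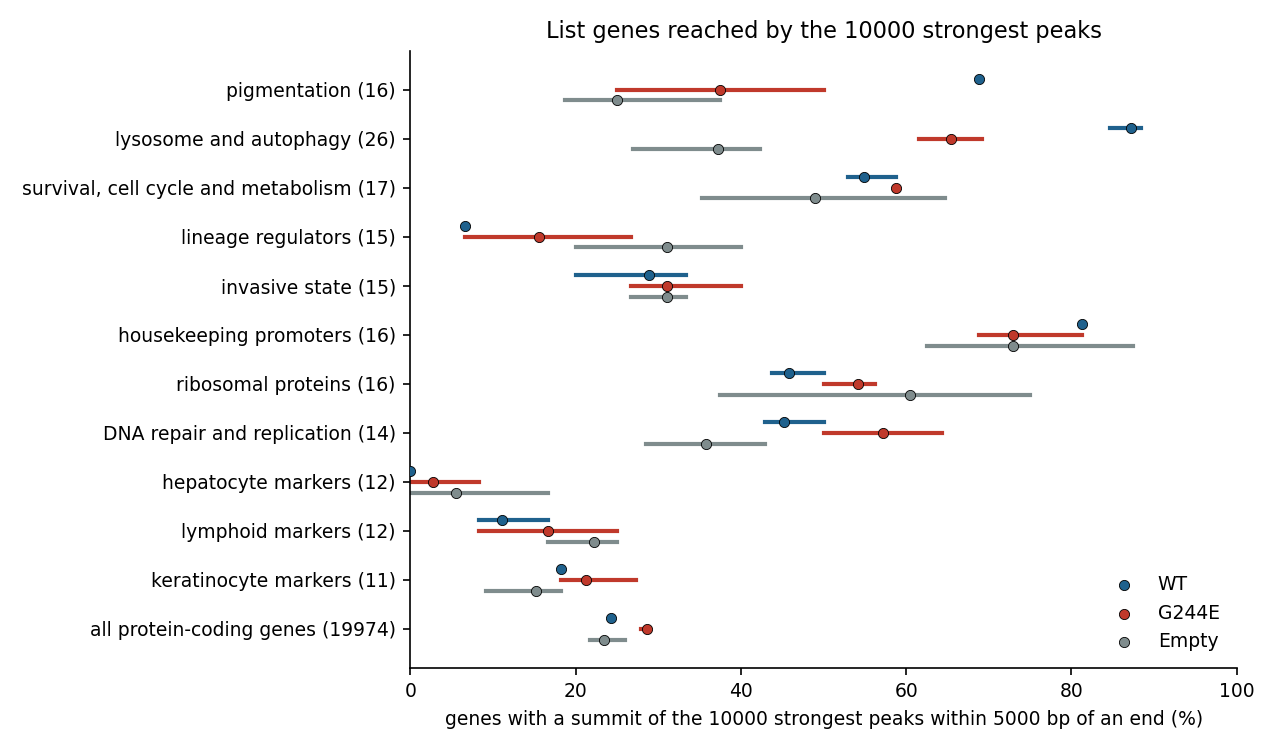
Percent of the genes of each list that have a summit of the 10000 strongest peaks within 5000 bp of a gene end, with the number of genes in parentheses. Points are means over the 3 libraries of WT, G244E and Empty, and lines run from the lowest to the highest library; lysosome genes lie at 65.4% in G244E and 37.2% in Empty, against 28.6% and 23.5% of all genes.

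The remaining lists gave no call in either direction. Lineage regulators were reached at 1 to 4 of 15 genes in G244E and 3 to 6 in Empty, with SOX10 at -0.67 and MITF itself at -0.83 (limma adjusted p = 0.584 and 0.350); TFE3 and TFEB, its relatives, had -0.81 and -0.41. Invasive state genes were reached at 4.67 of 15 on average in both groups, and FOSL1, JUN, AXL and TEAD4 had differences of -1.32 to 1.23. Housekeeping promoters stood at 11.7 of 16 in both, with HSP90AB1, a chaperone, at -4.26 and NCL, nucleolin, at 3.71 (limma adjusted p = 0.0872 and 0.105). RPS18 and PPIA had -1.80 and 1.47. Ribosomal protein genes had the lowest median difference among the lists, -1.22 over 12 tested members, and RPL4 and RPL10A had differences of -2.28 and -1.90 that did not pass (limma adjusted p = 0.207 and 0.313). DNA repair and replication genes were reached at 8 of 14 in G244E and 5 in Empty, with POLD1, RPA1 and XRCC1 between -1.71 and 3.03. Of the markers of other cell types, hepatocyte genes were reached at 0.333 of 12 in G244E and 0.667 in Empty, lymphoid genes at 2 and 2.67 of 12, and keratinocyte genes at 2.33 and 1.67 of 11. CD79A, CD3E and LCK had -3.08, -0.38 and -0.02, and PKP1, SFN and KRT14 had 2.90, 1.65 and -1.19.

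Presence and absence in the lists were counted as well. Over the complete lists, 8826 of 735457 merged regions were called in all G244E and no Empty library (1.2%) and 241 in all Empty and no G244E library (0.0328%). With peaks of −log10 q of at least 2 the counts were 14033 (17.8%) and 1 of 78847 (0.00127%). At the depth limit of Empty, with a −log10 p of at least 8, 589 of 9847 regions were called in all thinned G244E and no Empty library (5.98%), 18 in the reverse (0.183%) and 201 in all 6. Of the 589, 85.6% were WT regions and 49.7% lay at a gene end, and 17.6% of their 295 promoters held an E-box. Of the 201, 99.5% were WT regions and 67.7% lay at a gene end. Of the 18, 5 were WT regions and 5 lay at a small nuclear or U3 RNA gene. Over all 9847 regions, 48.2% were WT regions, 42.7% lay at a gene end and 39 lay at a small nuclear or U3 RNA gene. An E-box was in 17.2% of the 3700 promoters under all 9847, near the share under the 589.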

How the data were processed

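The authors deposited 1 list of peaks per library, on hg38. Per the submitters' processing notes, the tools were bcl2fastq (2.20.0.422), Bowtie2 (2.3.4.3) and also MACS2. The MACS2 version, any control library and duplicate removal are not given in the sources used here. For each peak the authors give a fold (the ratio of signal to local background), a −log10 p, a −log10 q and a summit offset. The deposited values are the authors' own and were used to rank, filter and count peaks within a list.

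Peaks were ranked by −log10 q, with ties at their average rank. The 10000 strongest peaks of the 6 libraries were merged into regions where they overlapped by 1 bp, and regions or genes with a score above 0 in at least 2 libraries were fitted with limma 3.58.1 (trend, R 4.3.3), with Benjamini-Hochberg adjustment over all tested. Single values were compared with exact permutation tests (20 splits). The fits were tested on simulated data.

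No read totals were used, so depth was recovered. MACS2 gives the fold as pileup plus 1 over background plus 1, and p as a Poisson tail, and whole-number pileups met both within 0.002 for 100% of peaks of −log10 p below 12 in these 6 libraries. Thinned values are means of 5 draws, the rank scores of the fits included, which narrows their sampling error, and presence counts of merged regions rest on 1 draw. Thinned peaks keep their called width, and summits that a shallow library would call by chance are missing. Gene ends come from the RefSeq table of GRCh38.p14, which gives no strand, so distance to either end replaced the planned distance to the start. Of the 171 list genes, 170 were found.

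Regions were named by the nearest protein-coding gene end: the 12 of highest mean G244E score among the 1000 strongest of all G244E libraries with no Empty peak (only 1 met this), the 8 of highest mean G244E score, and the 8 largest negative differences. Genes named are all of the pigmentation list and up to 4 of smallest adjusted p in each other list, with others marked as chosen later. A few genes that this rule names are not reported here. The members and lists were chosen with earlier results of these data known.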

Additional observations from a re-analysis of the deposited data

How the results depend on the processing

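The differences in strong peak number, share in WT regions and share of E-box promoters kept their direction under the alternatives run, with an exact permutation p of 0.1 except for the paired sign flips and for the number of all listed peaks (log2 difference 0.90, p = 0.3, in lists of which 2 stop at 300000). Their size moved: 15.8 to 35.3 percentage points for WT regions and 2.29 to 6.49 for E-box promoters. The gene-end share turned to -1.47 percentage points when ranked by fold. Calls of single regions depended on the settings. Against 120 higher and 20 lower of 9657 regions, limma called 4 and 5 of 13687 with thinned G244E. It called 65 and 12 of 18382 with the 20000 strongest peaks, and 63 and 10 of 18948 with a score above 0 needed in only 1 library. With all 31 distinct libraries sharing 1 spread it called 2544 and 1305 of 9657. Ranking by fold gave 32 lower of 11042 regions. Against 82 higher and 8 lower of 6865 genes, the same settings gave 7 and 2 of 9863 (thinned), 41 and 3 of 9228 (1 library) and 1638 and 1186 of 6865 (all libraries). There were 5 lower of 10386 genes with the 20000 strongest peaks and 42 higher of 7712 by fold. Windows of 1000 bp gave 51 and 4 of 5510, and whole gene bodies 39 and 2 of 4206. The adjustment thus ran over unequal numbers, so these counts are not directly comparable. Leaving out 1 library gave 0 to 128 higher and 0 to 43 lower regions, and 0 to 102 higher and 0 to 25 lower genes. All the zeros came from leaving out a G244E library, and the cause was not tested. Without Empty replicate 1, 2 or 3 there were 92, 94 and 128 higher regions.

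Regions of the complete lists in all G244E and no Empty library numbered 11216 to 29843 with 1 library left out, the highest without G244E replicate 3, and the reverse 308 to 3215. With a −log10 q of at least 2 they were 14033 and 1, and with thinning 589 and 18, an alternative added after seeing the data, as were the transcription starts of the promoter table and the −log10 p of at least 8.

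Same-numbered replicates did not deviate together in rank score (correlations of 0.000677, -5.88e-06 and -0.0175). This cannot tell whether they were handled together, so the main fits left the numbers out. With the replicate block, limma called 222 higher and 57 lower regions, and 137 and 35 genes. Paired sign flips left the differences of single values as they were, with a smallest possible p of 0.25. Depth limits what Empty can show: 60.7% to 67.6% of its listed peaks rest on a pileup of 1 tag.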
